A study of Homo sapiens and Mus musculus with 14 samples.

Results

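Accessible chromatin was compared between MDA-MB-436 cells of SMARCAL1 knockout clone 1 and control MDA-MB-436 cells of the same batch. MDA-MB-436 is an established human breast adenocarcinoma line. Each group was measured by ATAC-seq in 3 libraries that the labels call biological replicates, which makes 6 of the 14 libraries of the series. The members were chosen by group and batch, with no measured value: the control group has the genotype label Control and the other group the label SMARCAL1 knockout, and all 6 libraries carry the label of batch 1 and the same growth conditions. The authors had merged the replicates of each group into 1 peak list, so 2 of the 3 lists given were compared. The control list held 64806 peaks and the clone 1 list 39537. The list of knockout clone 2, from 2 libraries of batch 2, was used only to look up single positions. The other libraries of the series, of the mouse melanoma line B16F10, were not analysed here. The knockout group is 1 clone, so the loss of SMARCAL1 cannot be told apart from anything else that sets this clone off from control. Since each group is a single merged list, replicates leave no spread to test against and no p-value is given. Every interval is an exact binomial 95% interval or a normal one for a difference of shares, covering counting error only. A count of 0 is given with the limit that 3 counts would set.

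SMARCAL1 is a DNA translocase of the SNF2 family that is brought to single-stranded DNA by the protein RPA and rewinds and reverses stalled replication forks. Other members of that family slide or evict nucleosomes, while SMARCAL1 is known mainly for its work on DNA. In ATAC-seq a transposase cuts DNA that is free of nucleosomes, and pile-ups of its insertions are called as peaks, most strongly at active promoters and enhancers. The series sets SMARCAL1-proficient against SMARCAL1-deficient tumour cells, and the matched batch lets accessible sites be compared without a change of batch.

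The promoters on which the gene-level results turn are printed first, from RefSeq (assembly GRCh38.p14), from 250 bases before to 50 bases after the annotated start, 5′ to 3′ on the strand of the gene. Capitals mark 5 motifs on either strand: the GC box GGGCGG of SP and KLF factors, the NF-Y motif CCAAT, the ETS motif CCGGAAG, the AP-1 motif TGANTCA and the CREB and ATF core TGACGT. A match describes the letters only. The first 3 promoters had a strong peak in control and none in clone 1. They belong to ACSL4 (chrX:109733208-109733507, minus strand), EIF4EBP2 (chr10:70403895-70404194, plus strand) and GLO1 (chr6:38703096-38703395, minus strand).
ACSL4: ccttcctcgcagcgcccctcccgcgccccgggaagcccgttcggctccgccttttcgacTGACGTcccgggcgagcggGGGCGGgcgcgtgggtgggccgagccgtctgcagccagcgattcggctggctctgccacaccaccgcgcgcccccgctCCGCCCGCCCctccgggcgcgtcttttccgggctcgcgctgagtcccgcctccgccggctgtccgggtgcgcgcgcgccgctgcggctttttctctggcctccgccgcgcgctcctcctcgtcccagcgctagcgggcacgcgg
EIF4EBP2: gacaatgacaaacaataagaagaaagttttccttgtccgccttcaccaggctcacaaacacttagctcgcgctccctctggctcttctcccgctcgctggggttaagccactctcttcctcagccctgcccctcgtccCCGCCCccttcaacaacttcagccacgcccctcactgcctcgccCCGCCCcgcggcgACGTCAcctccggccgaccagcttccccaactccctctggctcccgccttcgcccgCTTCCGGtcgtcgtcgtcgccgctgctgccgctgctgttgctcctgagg
GLO1: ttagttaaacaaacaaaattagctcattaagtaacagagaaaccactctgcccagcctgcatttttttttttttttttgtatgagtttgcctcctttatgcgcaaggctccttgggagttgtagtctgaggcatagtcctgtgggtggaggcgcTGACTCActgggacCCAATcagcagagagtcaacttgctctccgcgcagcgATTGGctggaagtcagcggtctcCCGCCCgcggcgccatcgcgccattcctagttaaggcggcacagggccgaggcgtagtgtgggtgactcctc
The next 3 were open in the clone 1 list only. They belong to CTSF (chr11:66568557-66568856, minus strand), CTSD (chr11:1763878-1764177, minus strand) and HROB (chr17:44141680-44141979, plus strand).
CTSF: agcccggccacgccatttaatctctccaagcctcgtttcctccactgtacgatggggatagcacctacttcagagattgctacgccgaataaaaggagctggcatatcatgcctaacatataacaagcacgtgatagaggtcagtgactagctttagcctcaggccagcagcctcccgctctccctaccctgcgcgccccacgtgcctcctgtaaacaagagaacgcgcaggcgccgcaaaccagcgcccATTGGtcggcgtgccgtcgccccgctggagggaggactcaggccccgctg
CTSD: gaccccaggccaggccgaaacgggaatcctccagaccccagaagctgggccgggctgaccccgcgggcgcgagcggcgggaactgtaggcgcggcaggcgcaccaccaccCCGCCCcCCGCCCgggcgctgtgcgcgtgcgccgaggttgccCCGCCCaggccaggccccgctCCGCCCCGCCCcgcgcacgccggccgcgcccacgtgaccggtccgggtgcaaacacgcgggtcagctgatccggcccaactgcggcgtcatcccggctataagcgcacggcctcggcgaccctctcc
HROB: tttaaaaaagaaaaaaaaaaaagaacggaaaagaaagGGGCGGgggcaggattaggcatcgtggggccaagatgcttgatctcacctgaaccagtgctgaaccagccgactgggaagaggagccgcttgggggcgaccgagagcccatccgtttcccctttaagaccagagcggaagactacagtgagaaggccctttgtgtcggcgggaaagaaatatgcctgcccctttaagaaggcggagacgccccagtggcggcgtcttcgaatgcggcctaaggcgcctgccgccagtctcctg
The last pair had a peak in both lists, at SMARCAL1 (chr2:216412234-216412533, plus strand), the gene that was targeted, and at CD274 (chr9:5450292-5450591, plus strand), which encodes the checkpoint ligand PD-L1.
SMARCAL1: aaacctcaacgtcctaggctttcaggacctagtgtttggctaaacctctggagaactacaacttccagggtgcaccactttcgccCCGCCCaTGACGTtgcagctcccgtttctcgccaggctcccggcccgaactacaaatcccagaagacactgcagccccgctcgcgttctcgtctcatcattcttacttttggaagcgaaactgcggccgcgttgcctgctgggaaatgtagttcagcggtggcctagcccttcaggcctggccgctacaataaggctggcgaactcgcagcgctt
CD274: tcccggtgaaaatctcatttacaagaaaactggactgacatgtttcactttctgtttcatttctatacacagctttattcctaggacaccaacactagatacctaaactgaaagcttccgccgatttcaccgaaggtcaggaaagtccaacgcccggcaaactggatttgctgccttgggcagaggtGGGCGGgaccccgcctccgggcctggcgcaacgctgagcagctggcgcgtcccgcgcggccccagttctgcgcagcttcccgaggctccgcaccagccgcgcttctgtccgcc
The ACSL4 promoter held 3 GC boxes and 1 CREB and ATF core, and that of CTSD held 5 GC boxes. The GLO1 promoter held 1 AP-1 motif and 2 CCAAT motifs, and the other 7 held no AP-1 motif. The control peaks of ACSL4, EIF4EBP2 and GLO1 covered all 300 bases, as did the clone 1 peaks of CTSD and HROB. The clone 1 peak of CTSF covered 195 of its 300 bases.

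The lists were described by the authors' score, which was read as −log10 of the peak caller's p-value. Scores depend on the depth of each call, so they were ranked within a list and not compared between lists. The median score was 6.26 and the median width 399 bp in control, against 6.07 and 453 bp in clone 1. The cell line was checked against its markers. ESR1 and PGR, the hormone receptor genes of luminal breast cells, had no gene-start peak in either list, and 10 of 15 basal breast markers had one in control and 6 in clone 1. Luminal markers had 6 of 15 and 4 of 15. Markers of cells not cultured here had a gene-start peak in control at 3 of 10 leukocyte, 1 of 8 endothelial, 2 of 8 fibroblast and 4 of 8 melanocyte genes, and in clone 1 at 1, 1, 1 and 3. Single markers outside the epithelium can be accessible in the line: the melanocyte genes DCT and MITF had control scores of 21.8 and 20.7 and clone 1 scores of 12.8 and 13.1.

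The first comparison asked which control sites were missing in clone 1 and which clone 1 sites were missing in control. Clone 1 lacked 37494 of the control peaks (57.9%, 57.5 to 58.2). In the other direction, control lacked 12143 of the clone 1 peaks (30.7%, 30.3 to 31.2). The missing peaks were the weak and narrow ones of each list. Control peaks absent in clone 1 had a median score of 5.64 and a median width of 283 bp, against 8.92 and 650 bp for those found. Clone 1 peaks absent in control had 5.46 and 279 bp, against 6.68 and 568 bp. Among the 1000 strongest peaks of each list, 0 were missing from the other, which allows a share of up to 0.3%, and among the 5000 strongest 18 control and 28 clone 1 peaks were missing.

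Across deciles of the control score the absent share went from 92.6% in the weakest to 31.4% in the eighth, 11.2% in the ninth and 0.910% in the strongest. For clone 1 peaks it went from 58.8% in the weakest decile to 9.16% in the eighth, 3.34% in the ninth and 0.304% in the strongest. At a score of 12 or more, 130 of 7947 control peaks (1.64%) and 3 of 1933 clone 1 peaks (0.155%) were absent from the other list. At 15 or more it was 12 of 4572 control peaks and 0 of 766 clone 1 peaks, which allows up to 0.392%. Width followed the same order. Control peaks of up to 200 bp were absent in clone 1 at 93.4%, and those of over 1500 bp at 2.93%.

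**Figure D1:**
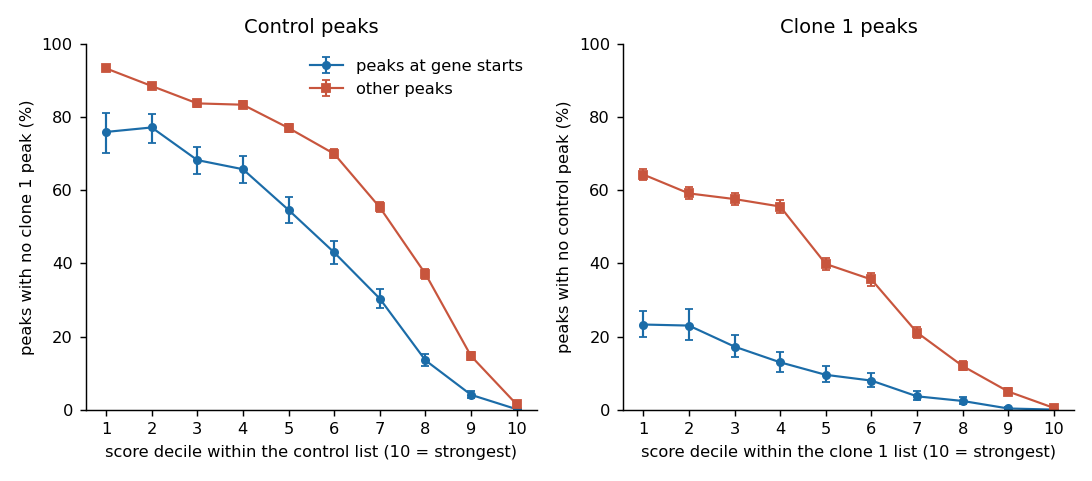
Share of peaks with no overlapping peak in the other list (y axis, percent) by score decile within each list (x axis, 10 strongest), for control peaks on the left and clone 1 peaks on the right, with exact binomial 95% intervals. Blue circles are peaks at gene starts and red squares all other peaks; in control decile 8 the shares were 13.5% and 37.2%.

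Peaks at gene starts were missing less often than other peaks of the same strength. A gene-start peak lies within 1000 bp of the first base of a protein-coding gene. Such peaks were 11420 of the control peaks, and 25.8% of them (25 to 26.6) had no clone 1 peak. The absent share was 65.4% in gene bodies, 66.1% within 10 kb of a gene, 63.8% at 10 to 100 kb and 65.5% beyond 100 kb, so the classes away from gene starts lay within 2.25 points of each other. When every decile of the control score was weighted equally, clone 1 shared 56.7% of gene-start peaks and 39.5% of other peaks, which is 17.2 points apart (16.1 to 18.2). Gene-start peaks were also wider, with a median of 937 bp against 336 to 362 bp in the other classes. When 3 classes of width were equalised as well, the difference was 6.45 points (5.23 to 7.66). Among clone 1 peaks the same pattern held: 6.79% of 9195 gene-start peaks and 37.9% of gene-body peaks had no control peak, and the difference at equal score deciles was 25 points (24.1 to 25.9). With both lists restricted to scores of 7 or more, the control difference was 8.19 points.

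Where 1 control peak and 1 clone 1 peak overlapped only each other, the clone 1 peak was usually the narrower. There were 25614 such pairs, with median widths of 646 bp in control and 563 bp in clone 1. The clone 1 peak was narrower in 63.9% of pairs and wider in 35.9%, and the median ratio of widths was 0.904. Over these pairs, which share their sequence and its mappability, the Spearman correlation was 0.646 between scores and 0.770 between widths. Of the control peaks found in clone 1, 26672 overlapped 1 clone 1 peak and 640 overlapped more than 1.

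The absent share also differed with the number of decimals of the score. A score with more than 5 decimals is a mean over several merged calls: 6 or 7 decimals are left by a mean of 2 or 4 calls and 8 or more by a mean of 3. Control peaks were absent in clone 1 at 73.0% with 5 decimals or fewer, 51.1% with 6 or 7 and 27.6% with 8 or more. Clone 1 peaks were absent in control at 43.0%, 9.79% and 1.69%. Some scores recur at exact steps, and 3 such series of steps were recovered from each list; each series was taken as 1 library, an inference that no label checks. The 3 control series, of 4063, 3261 and 2527 peaks, were absent in clone 1 at 93.2%, 93.5% and 94.4%. The 3 clone 1 series were absent in control at 39% (37.5 to 40.6) of 3828 peaks, 75.2% (71.8 to 78.4) of 693 and 61.3% (57.1 to 65.4) of 553. These 3 have 10, 6 and 4 steps and were not compared at equal score. The series with 3828 peaks makes up 9.68% of the clone 1 list, while the largest control series makes up 6.27% of the control list. The background recovered from these steps was 2.02, 2.01 and 1.97 in the control series and 1.91, 3.79 and 2.45 in the clone 1 series. As a relative depth it was divided by the width of the narrowest peak of each series. These widths were 115, 124 and 132 bp in control and 130, 191 and 156 bp in clone 1. The result was 1.76, 1.62 and 1.49 per 100 bp in the control series and 1.47, 1.98 and 1.57 in the clone 1 series. These ranges overlap, but they depend on that divisor. The part of depth in the absent shares was not tested.

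**Figure D2:**
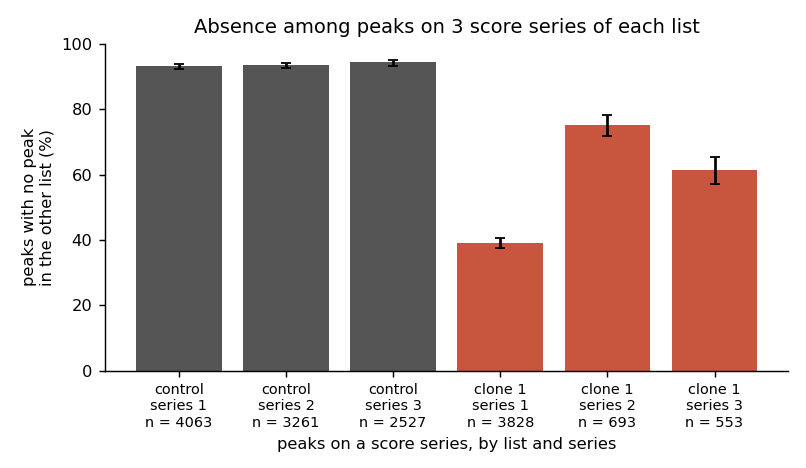
Share of the peaks on a score series with no overlapping peak in the other list (y axis, percent, bars from 0) for the 3 series of each list (x axis), each taken as 1 library, with exact binomial 95% intervals. The control series sit between 93.2% and 94.4%, and the clone 1 series between 39% and 75.2%.

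At the level of genes, 11805 of 20037 protein-coding genes (58.9%) had a gene-start peak in control and 9766 in clone 1. Both lists had one at 9356 genes and neither at 7822. A control peak with none in clone 1 was found at 2449 genes (20.7%, 20.02 to 21.5), which share 2245 distinct peaks because neighbouring genes can start at the same site. Of the 8232 genes without a control peak, 410 (4.98%, 4.52 to 5.47) had one in clone 1, over 389 distinct peaks. The control scores of the missing genes had a median of 6.04, against 10.6 for the genes kept. By decile of the control gene-start score the missing share was 68.9% in the weakest, 25.8% in the fourth, 6.53% in the sixth and 0 of 1180 genes in the strongest, which allows a share of up to 0.254%. With both lists held to scores of 7 or more, 40.9% of the genes were missing, where control holds 24854 peaks and clone 1 12280, and 211 genes were present in clone 1 only. With lists of equal length the values were 14% and 886 genes. With only the recognisable means of 1 list set against the whole other list they were 15.3% and 50 genes.

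The strongest control gene-start peaks without a clone 1 peak belonged to 10 genes on 6 chromosomes. ACSL4 (chromosome X, 109641335 to 109733257), which activates polyunsaturated fatty acids for membrane lipids, had the strongest, with a control score of 16.4 at the 94.5 percentile of its list and a width of 764 bp. EIF4EBP2 (chromosome 10, 70404145 to 70428618), a repressor of cap-dependent translation, followed with 14.5. GLO1 (chromosome 6, 38675925 to 38703145), the glyoxalase that clears methylglyoxal, had 14. These 3 peaks cover the promoters printed above in full, and no clone 1 peak lay within 1000 bp of any of the starts. ZCCHC10, a zinc finger gene, had 13.7. TIMM23, a channel subunit of the mitochondrial inner membrane translocase, had 12.9, and PHB1, a prohibitin of the same membrane, had 12.4. TIMM23 has a near-identical copy in the genome, so reads there may be split and its value is uncertain.

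The remaining 4 of these 10 genes had control scores from 12.2 to 12.3. They were KCNN2, a calcium-activated potassium channel, PDIA5, a disulfide isomerase of the endoplasmic reticulum, SPDL1, a dynein adaptor at kinetochores, and RTL8C, a retrotransposon-derived gene on chromosome X with near-identical neighbours. The control scores of GLO1, ZCCHC10, PDIA5, SPDL1 and RTL8C had 8 or more decimals, so these scores are means over merged calls. The other 5 had 5 decimals or fewer. At 9 of the 10 genes the clone 2 list had a gene-start peak, with scores from 8.70 at PHB1 to 19.4 at KCNN2, and EIF4EBP2 was the exception. Over the 2408 missing genes whose control peak no clone 1 peak overlapped, a clone 2 peak was found at 619 (25.7%). It was found at 82.3% of the genes with a peak in both batch 1 lists. ACSL4 lies in a stretch of chromosome X where 11 of 42 control peaks were found in clone 1. EIF4EBP2 was no longer missing when gene starts were taken within 3000 bp, TIMM23 when either gene end was allowed and KCNN2 when any annotated start was allowed.

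Genes with a gene-start peak in clone 1 only had weaker peaks, and they included lysosomal proteases and a homologous recombination factor. SHROOM4 (chromosome X, 50575534 to 50814194), a regulator of the actin cytoskeleton, had the highest clone 1 score, 9.26 at the 87.5 percentile of the clone 1 list. CTSF (chromosome 11, 66563464 to 66568606) and CTSD (chromosome 11, 1752755 to 1763927), which encode the lysosomal cathepsins F and D, had 9.14 and 8.26. HROB (chromosome 17, 44141930 to 44162476), which brings the MCM8 and MCM9 helicase to recombination sites, had 8.22. CCDC85B had 8.21 and GFI1, a transcriptional repressor of blood cell differentiation, 7.89. GMPPB, which makes GDP-mannose for glycosylation, had 7.84, the P4-type ATPase gene ATP9B 7.78, the Rab exchange factor gene DENND4B 7.71 and ECH1, an enoyl-CoA isomerase, 7.70.

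Support for these 10 genes was thinner than for the genes missing in clone 1. CCDC85B had a score with 6 or 7 decimals and the other 9 had 5 decimals or fewer. Clone 2 had a gene-start peak at GMPPB, with 8.30, and at ECH1, with 7.62, and at none of the other 8. Over the 401 genes with a peak in clone 1 only that no control peak overlapped, 43 (10.7%) had one in clone 2. Recognisable means made up 11.7% of the clone 1 peaks of all 410 genes present in clone 1 only. Of the clone 1 peaks of genes present in both lists they made up 58.9%. GFI1 and DENND4B were no longer counted with gene starts within 500 bp, CCDC85B within 3000 bp, and GMPPB and ATP9B when either gene end was allowed.

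Among the 9356 genes with a gene-start peak in both lists, the order of the scores was largely shared. The Spearman correlation across genes was 0.776. These genes share their promoters and most of their sequence between the lists and are not independent replicates. Each gene was ranked from 1, the strongest, to 9356 within each list. The 8 genes that stood farthest down in clone 1 are described first. NOL11, a factor of ribosomal RNA production, ranked 2120 in control and 9252 in clone 1. SORD, sorbitol dehydrogenase, ranked 2170 and 8441, and MOB1A, a coactivator of the LATS kinases in the Hippo pathway, 1937 and 7925. BMPR1A, a bone morphogenetic protein receptor, ranked 1319 and 6897. ELP4, an Elongator subunit, and IMMP1L, a mitochondrial inner membrane protease, share 1 peak and went from 1059.5 to 6633. RSBN1L ranked 1655 and 7094, and RRAGC, a Rag GTPase of amino acid signalling to mTORC1, 1373 and 6529.

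All 8 of these genes had a clone 2 gene-start peak, with scores from 12 at BMPR1A to 19.3 at MOB1A. Their clone 1 scores all had 6 or more decimals, but only at RSBN1L did both scores have 8 or more. At NOL11, SORD, MOB1A, BMPR1A and RRAGC the control score had 8 or more and the clone 1 score 6 or 7. There the scores are means over different numbers of calls. At ELP4 and IMMP1L, which share 1 peak, the control score had 5 decimals or fewer and the clone 1 score 8 or more. A clone 1 mean is there set against a control score that shows no averaging. The clone 1 peak was wider than the control peak at NOL11 (1169 bp against 1133 bp) and SORD (1528 bp against 1149 bp) and narrower at the other 6, among them ELP4 and IMMP1L with 838 bp against 1242 bp.

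At the other end, 8 genes stood farthest up in clone 1. SFR1, a homologous recombination factor, ranked 8999 in control and 1838 in clone 1. LHPP, a histidine phosphatase, ranked 7812 and 753, and XBP1, a transcription factor of the unfolded protein response, 7820 and 1269. PAN3, a subunit of a deadenylase, ranked 8181 and 1844, MYLK, myosin light chain kinase, 8427 and 2272, and RBM3, a cold-inducible RNA-binding protein, 8351 and 2305. PPARD, a nuclear receptor of fatty acid metabolism, ranked 7958 and 2010, and FZR1, an activator of the anaphase-promoting complex, 6957 and 1014. For 7 of the 8, all but SFR1, the clone 1 score had 5 decimals or fewer, while the control scores of 6 of these 7, all but MYLK, had 6 or more. In these 6 genes a mean over several control calls is thus set against a clone 1 score that shows no averaging. Clone 2 had a gene-start peak at LHPP, MYLK and FZR1, with 9.66, 12.6 and 10.1. SMARCAL1 ranked 1767 in control and 844 in clone 1, and CD274 2203 and 2357. The SMARCAL1 control score had 8 or more decimals and its clone 1 score 5 or fewer, the same mismatch as in those 6 genes. Both CD274 scores had 5 decimals or fewer.

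**Figure D3:**
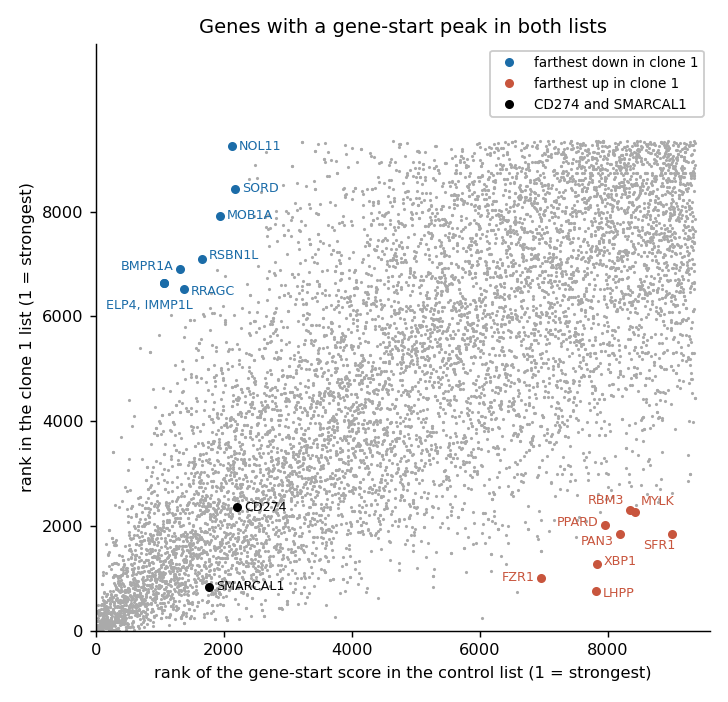
Rank of the gene-start score in the control list (x axis) and in the clone 1 list (y axis), 1 strongest, for the 9356 genes with a gene-start peak in both lists (grey points). Blue points are the 8 genes farthest down in clone 1, red points the 8 farthest up, and black points CD274 (2203 and 2357) and SMARCAL1 (1767 and 844).

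Gene lists were read beside the share over all genes, 20.7%, and beside the number expected from the control scores of their members, which is the sum of the missing shares of all genes in the same score decile. No list was tested. The genes of fork remodelling and protection, the pathway of SMARCAL1 itself, had 5 of 30 control gene-start peaks (16.7%) missing in clone 1. The number expected was 3.49. The missing ones were MRE11, a double-strand break nuclease, with a control score of 7.56, ATRX, a chromatin remodeller, with 6.76, ATRIP, the partner of the ATR kinase, with 6.17, and the Fanconi anaemia genes FANCA and FANCD2 with 7.65 and 6.04. BRCA1, which protects reversed forks, was present in clone 1 only, with 6.15. The strongest members kept were RECQL, a helicase that restarts reversed forks, BOD1L1, HLTF, a fork-reversing translocase of the same family as SMARCAL1, and EXO1, with control scores of 34.9, 20.9, 18.5 and 17.9 and clone 1 scores of 19.3, 10.8, 9.28 and 10.7. RADX, a single-stranded DNA-binding protein at forks, ranked 2970 in control and 8008 in clone 1. The other fork-reversing translocase gene, ZRANB3, had a peak in neither list. MRE11, ATRX and BRCA1 had a clone 2 peak, with 18.2, 14.9 and 6.33. With both lists at scores of 7 or more, 7 of 26 genes of this list (26.9%) were missing, against 40.9% of all genes.

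Of 38 replication machinery genes with a control peak, 6 (15.8%) had none in clone 1, with 6.80 expected and 20.7% missing among all genes: CDC6, MCM5, MCM7, GINS3, POLD3 and POLE2, with control scores from 5.29 at MCM5 to 7.23 at CDC6. With both lists at scores of 7 or more, 9 of 28 (32.1%) were missing, against 40.9% of all genes. The highest-scoring members kept were ORC3, MCM3, MCM9 and POLA1, with control scores of 27.1, 24.9, 23.2 and 20.2. Chromatin remodellers had 4 of 31 missing with 8.58 expected, namely BICRA, CHD3, CHD4 and SMARCB1, with control scores of 7.84, 5.53, 5.27 and 5.50. With both lists at scores of 7 or more, 9 of 20 remodeller genes (45%) were missing, against the same 40.9%. SMARCE1, a SWI/SNF subunit, was present in clone 1 only, with 5.12. SMARCA5, ACTL6A, CHD1 and CHD8 led the members kept, with control scores of 31.6, 23.2, 19.2 and 18.8.

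Genes of cytosolic DNA sensing had 5 of 14 missing, with 3.24 expected. They were STING1, the adaptor downstream of CGAS (5.21), TREX1, the exonuclease that degrades cytosolic DNA (5.12), BANF1, which coats it (6.51), the kinase gene IKBKE (6.02) and the interferon factor gene IRF7 (6.13). All 5 control scores were below 7. TREX1 and BANF1 had a clone 2 gene-start peak, and STING1, IKBKE and IRF7 had none. Control peaks of 7 or more against the whole clone 1 list left 0 of 9 genes missing, against 7.14% of all genes. That count allows up to 3 of the 9. With both lists at scores of 7 or more it was 3 of 9, against 40.9%. Lists of equal length gave 3 of 12 (25%), against 14%, and recognisable means only 2 of 8, against 15.3%. Present in clone 1 only were IRF3, the factor that TBK1 activates, with 6.35, TRIM56 with 5.06 and ZBP1, a sensor of Z-form nucleic acid, with 5.05. CGAS was kept, at ranks 6201 and 5391, and TBK1, at 3166 and 7278. ENPP1, which degrades the messenger cGAMP, ranked 1605 and 1774, and RNASEH2B 2500 and 1020. IFI16, a DNA sensor, had a gene-start peak in both lists. No clone 1 peak overlapped its strongest control gene-start peak, but its clone 1 peak overlapped another control peak. RNA sensing had 2 of 11 missing with 2.88 expected, ADAR with 6.61 and DHX58 with 5.84. TRAF6, RIGI and IFIH1, which is the sensor MDA5, were kept, with control scores of 15.8, 14 and 13.6.

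Interferon receptors and JAK-STAT genes had 2 of 17 missing with 2.35 expected, IFNGR2 with 5.86 and TYK2 with 6.84. JAK2, IFNAR1 and IFNGR1 were kept, with control scores of 20.4, 14.8 and 13.9. The interferon-stimulated genes, their targets, had 9 of 19 missing (47.4%) with 6.23 expected. With both lists at scores of 7 or more 7 of 10 were missing, against 40.9% of all genes, and with only the control peaks whose scores have 6 or more decimals 1 of 7 (14.3%), against 15.3%. IFI44 had the strongest of these control peaks, 12.1, and a clone 2 peak of 12. OASL had 8.74, IFI44L 7.70, PARP14 6.84, IFIT5 6.66, LGALS3BP 5.96, IFITM3 5.53, OAS3 5.38 and LAMP3 5.31. None of these 8 had a clone 2 gene-start peak. At OASL, as at IFNGR2, a clone 1 peak overlapped the control peak outside the 1000 bp window. The members kept with the highest control scores were DDX60L, HERC5, and PARP9 with DTX3L, neighbours that share 1 peak. None of the 20 members without a control peak had one in clone 1, and these include IFIT1, IFIT2, IFIT3, MX2 and BST2. That count allows up to 3 of the 20, and the share over all genes without a control peak was 4.98%.

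Checkpoint ligands and genes that set PD-L1 stability had 5 of 17 missing with 4.93 expected. CD276 (5.51), CD70 (5.24), HHLA2 (5.03) and PVR (5.77) encode ligands, and HIP1R (5.66) a factor that carries PD-L1 to lysosomes. LGALS9, the gene of galectin-9, was present in clone 1 only, with 5.27. Among the genes kept, CD47, the ligand that inhibits phagocytosis, ranked 1368 in control and 2280 in clone 1, PDCD1LG2, the gene of PD-L2, 1786 and 5737, and CMTM4 2605 and 2672. CMTM6, which stabilises PD-L1 at the cell surface, ranked 6678 and 7144. Antigen presentation had 1 of 10 missing, CALR with 7.07, and 1.26 expected. ERAP2, a peptide-trimming enzyme, and NLRC5, the activator of MHC class I genes, were present in clone 1 only, with 5.76 and 5.66. ERAP1, RFXAP, PSMB10 and CANX were kept.

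Transcription factors of the AP-1 family had 2 of 12 missing with 3.72 expected, JUNB with 5.24 and BATF3 with 5.97. ATF2, JUN, ATF7 and JUND were kept, and JUN ranked 1521 in control and 3899 in clone 1. Targets of AP-1 and YAP had 7 of 25 missing with 8.43 expected. HMOX1, haem oxygenase, had 8.22 and THBS1, thrombospondin, 7.78, and the collagenase gene MMP1 had 6.46 and a clone 2 peak of 16. CCND1 (5.61), MMP10 (5.47), CD44 (5.27) and VEGFA (5.02) were the others. CCN2, a target of YAP and TEAD, stood at 2017 in control and 5851 in clone 1, and ITGA2, DUSP5 and TGFA were also kept. NF-kB pathway genes had 3 of 19 missing with 4.89 expected, BCL3 and NFKBIE with 7.31 each and MAP3K14 with 5.36. REL, BIRC3, NFKBIB and TNFAIP3 led those kept.

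Mesenchymal genes had 3 of 19 missing with 4.16 expected, SNAI1 with 7.59, S100A4 with 5.97 and COL1A1 with 5.42. TGFBR2, NT5E, CAV1 and TWIST1 were kept with control scores of 18.4, 16.6, 16 and 13.6. Genes of epithelial junctions had few peaks at all, 7 of 20 in control, and 5 of these 7 were missing with 3.39 expected. JUP had 7.65, OCLN 5.61, PKP3 5.54, TJP3 5.41 and MARVELD2 5.13, while DSP and EPCAM were kept. CDH1, the gene of E-cadherin, and its neighbour CDH3 each had a peak of their own in clone 1 only, with 6.24 and 5.11. The claudin genes CLDN3, CLDN4 and CLDN7 had none in either list. Of the basal breast markers KRT17, ITGB4, FOXC1 and CD44 were missing, with 5.51, 5.10, 7.82 and 5.27, while CAV2, EGFR, ITGA6 and VIM were kept. Of the luminal markers KRT8 and KRT18 were missing, and they share 1 control peak of 5.76. The luminal genes ERBB3, FOXA1 and XBP1 were kept.

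**Figure D4:**
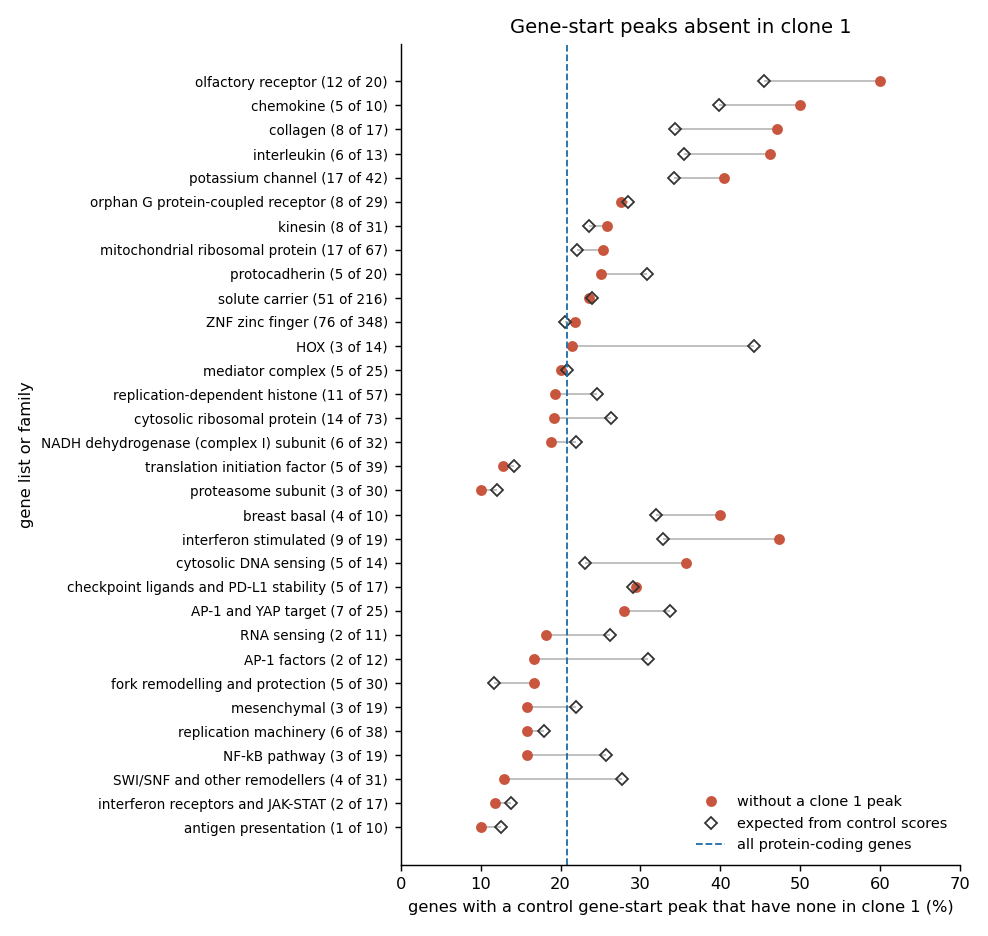
Share of genes with a control gene-start peak that had none in clone 1 (x axis, percent), for lists and families with at least 10 control peaks (y axis, missing of control peaks in parentheses). Red circles are observed shares, open diamonds the shares expected from control scores, and the dashed line all protein-coding genes (20.7%); the circle lies right of the diamond for interferon-stimulated genes (9 of 19).

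Larger gene families were counted in the same way. Cytosolic ribosomal protein genes had 14 of 73 missing with 19.2 expected, mitochondrial ribosomal protein genes 17 of 67 with 14.8, and proteasome subunit genes 3 of 30 with 3.61. Zinc finger genes named ZNF had 76 of 348 with 71.5 expected, and solute carrier genes 51 of 216 with 51.8. Replication-dependent histone genes had 11 of 57 with 14, and since many of them are near-identical copies in clusters, their counts are uncertain. HOX genes, which set positional identity, had 3 of 14 missing with 6.2 expected. Potassium channel genes had 17 of 42 with 14.4, collagen genes 8 of 17 with 5.84, and olfactory receptor genes, which serve smell, 12 of 20 with 9.08.

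The promoter sequence of the genes was examined next, in the 14568 protein-coding genes whose RefSeq promoter could be matched. The CpG ratio is the number of CG dinucleotides relative to that given by the base composition, and it is high in CpG island promoters. Its median was 0.861 in genes with a peak in both lists, 0.811 in those with a control peak only, 0.694 in those with a clone 1 peak only and 0.321 in those with neither. Among genes with a control peak, 212 of 483 promoters with a ratio under 0.4 were missing in clone 1 (43.9%, 39.4 to 48.4). The share was 22.7% (20.6 to 25) at ratios from 0.4 to 0.7 and 16.6% (15.8 to 17.5) at 0.7 or more. Promoters poor in CpG also had weaker control peaks, with a median score of 6.92 against 9.68 at ratios of 0.7 or more. At equal weight for 9 score deciles, the missing shares were 29.6% under 0.4 and 20.4% in the rest, a difference of 9.26 points (5.96 to 12.6). Among genes without a control peak, a clone 1 peak was present at 2.28% of promoters under 0.4, 6.93% from 0.4 to 0.7 and 10.6% at 0.7 or more.

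Motifs were searched on both strands of the same 300 bases, and a short motif can lie within a longer one. The GC box GGGCGG was found in 73.6% of promoters with a peak in both lists and 67.1% with a control peak only. With a clone 1 peak only it was found in 58.4% and with neither in 35.1%, against 59.1% of all 14568 matched genes. The ETS motif CCGGAAG was found in 20.8%, 16.7%, 8.24% and 5.41%, against 14.7% of the matched genes. The NRF1 motif was found in 13.6%, 8.86%, 4.66% and 2.03%, against 8.82%. The CREB and ATF core TGACGT was found in 13.0%, 9.03%, 8.60% and 5.53%, against 9.85%. The AP-1 motif TGANTCA ran the other way, with 3.82%, 4.86%, 5.02% and 8.67%, against 5.66%. These gradients were read again at equal score deciles. Genes with and without TGACGT were missing at 16.5% and 19.3%, a difference of -2.84 points (-4.92 to -0.757). For the AP-1 motif the same difference was 1.34 points (-1.99 to 4.68), for CCGGAAG it was -0.42 points (-2.18 to 1.33) and for the GC box -2.14 points (-3.60 to -0.669). Of 15 motifs searched, 5 had an interval of that difference that did not include 0, the GC box, NRF1, TGACGT, YY1 and the CTCF core AGGGGGC, all with fewer missing genes, and the intervals are not adjusted for the number searched.

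Of the 37494 control peaks absent in clone 1, 7246 (19.3%) coincided with a clone 2 peak, against 75.2% of those found in clone 1. Beyond 10 kb of any protein-coding gene, the strongest control peak without a clone 1 peak lay on chromosome 9 (30932208 to 30932649), 1452 kb from ACO1, with a score of 19.6 at rank 1903 of the control list. The next lay on chromosome 14 (49250132 to 49250748; 16), chromosome 11 (96463906 to 96464376; 16), chromosome 3 (80677739 to 80678451; 15.3) and chromosome X (100441140 to 100441685; 15.2). The score of each of the 5 had 8 or more decimals, and a clone 2 peak overlapped each. The strongest distal clone 1 peaks without a control peak lay on chromosome 2 (11386319 to 11386561; 12.5), chromosome 12 (18865222 to 18865499; 12.5), chromosome 2 (53553618 to 53555003; 11.6), and on chromosomes 12 (88298732 to 88299008) and 6 (76104409 to 76104869) with 10.6 each. All 5 of these scores had 5 decimals or fewer, and clone 2 had a peak at 3 of the 5. Of all 12143 clone 1 peaks that control lacked, 589 (4.85%) coincided with a peak of clone 2, against 74.8% of those that control shared. The genes that collected most clone 1 peaks absent in control were all long: DLG2, a synaptic scaffold, with 18 of its 51 clone 1 peaks, CTNND2 with 17 of 35, PTPRN2 with 16 of 35, NKAIN2 with 14 of 27 and the cadherin gene CDH12 with 13 of 27. The shortest of them, CTNND2, spans 933 kb, and each held more control peaks absent in clone 1, from 19 in NKAIN2 to 43 in DLG2. For comparison, 37.9% of all clone 1 peaks in gene bodies and 30.7% of the whole clone 1 list were absent in control.

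Along the chromosomes the number of control peaks found in clone 1 was divided by that expected from their score deciles. That expectation uses score deciles only, and at equal deciles gene-start peaks were shared 17.2 points more often than other peaks. The part of gene-start content in the ratios was not tested. Chromosome 19 had the highest ratio, 1.17, followed by chromosome 7 with 1.13 and chromosome 17 with 1.06, and chromosomes 3 and 13 had the lowest, 0.931 and 0.932. Chromosome 7 held 4.83% of the control and 5.83% of the clone 1 peaks. Of clone 1 peaks, the share absent in control was highest on chromosome 22, 48.6%, and lowest on chromosome 18, 22.8%. Over the 556 windows of 5 Mb that held 40 or more control peaks, the ratio had a median of 0.991, with 0.828 and 1.17 at the tenth and ninetieth percentiles. The lowest values were 0.575 on chromosome X (145000001 to 150000000; 22 of 92 peaks found), which holds FMR1, IDS and AFF2, and 0.593 on chromosome X (105000001 to 110000000; 11 of 42), which holds ACSL4, PSMD10 and RADX. Next came 0.621 on chromosome 6 (30000001 to 35000000; 7 of 42), the segment of the HLA genes, 0.648 on chromosome 11 (40000001 to 45000000; 30 of 121) with API5 and CD82, and 0.666 on chromosome X (115000001 to 120000000; 12 of 43) with IL13RA1 and WDR44. Thus 3 of the 5 lowest windows lay on chromosome X, whose ratio as a whole was 0.964.

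The highest window ratios were 1.52 on chromosome 7 (70000001 to 75000000; 38 of 82), with BAZ1B, EIF4H and RFC2, and 1.52 on chromosome 22 (15000001 to 20000000; 42 of 93), with IL17RA and CDC45. They were followed by 1.5 on chromosome 17 (35000001 to 40000000; 30 of 74), with PSMD3 and CDK12, 1.46 on chromosome 7 (100000001 to 105000000; 62 of 122), with ORC5 and LAMTOR4, and 1.43 on chromosome 10 (90000001 to 95000000; 26 of 61), with KIF11 and HELLS. GTF2I, in the first of these windows, and TBC1D3C, in that of chromosome 17, have near-identical copies, where peaks are uncertain. Clone 1 peaks absent in control took their highest shares on chromosome 1 (20000001 to 25000000; 59.1%), chromosome 22 (45000001 to 50000000; 58.1%) and chromosome 9 (130000001 to 135000000; 56.3%). They were followed by chromosome 5 (25000001 to 30000000; 55.3%) and a further window of chromosome 22 (35000001 to 40000000; 55.1%). The median over 439 windows with at least 40 clone 1 peaks was 30.4%. DNA copy number was not measured here, and its part in these regional values was not tested.

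**Figure D5:**
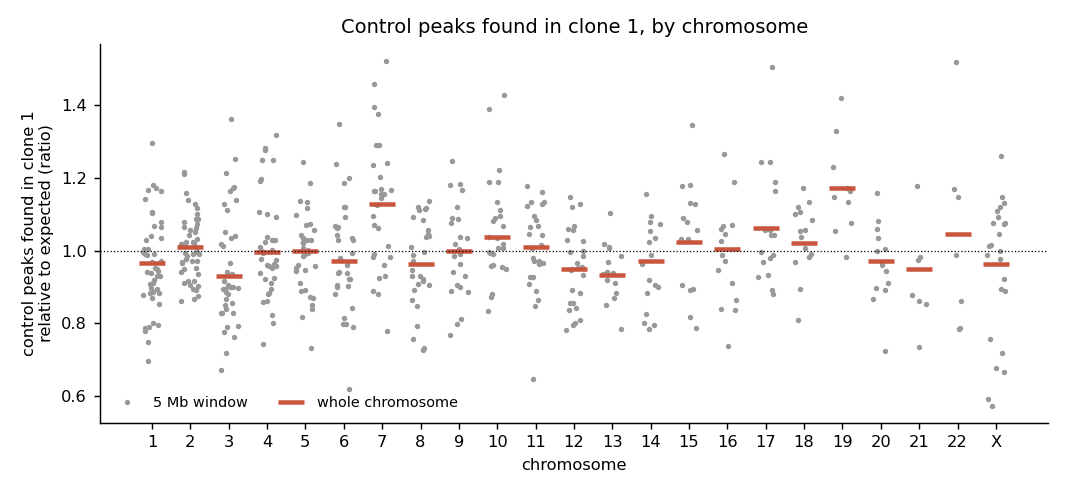
Number of control peaks found in clone 1 relative to that expected from their score deciles (y axis, ratio) by chromosome (x axis). Grey points are 5 Mb windows of 40 or more control peaks, from 0.575 to 1.52, and red bars whole chromosomes, with chromosome 19 at 1.17 and chromosome 3 at 0.931.

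At the checkpoint locus the order of the peaks differed between the lists. The peak at the start of CD274 stood at the 93.4 percentile of the control list and at the 88.5 percentile of the clone 1 list. The peak to its left, at PLGRKT, went from the 96.4 to the 86.2 percentile, and the gene-start peak of PDCD1LG2 from the 94.8 to the 62.6 percentile. In control the CD274 start was thus the weakest of these 3 peaks, and in clone 1 it was the strongest. The peak at the start of SMARCAL1 stood at the 94.8 and the 96.4 percentile, but its control score is a mean over merged calls and its clone 1 score shows no averaging. Peak positions do not tell whether the coding sequence is disrupted, so the knockout is not checked by them.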

How the data were processed

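ATAC-seq peak lists of control and SMARCAL1 knockout clone 1 MDA-MB-436 cells, 3 libraries each, were used as deposited, with the clone 2 list for look-up only. HISAT2, MACS2 and ChIPseeker and the build hg38 are named per the submitters' processing notes, with neither version nor setting given in the sources used here. The authors merged the replicates, per the labels. A line gives a position and a score. The unit of the deposited score is not named, and its values follow −log10 of a Poisson tail at whole pileups, so it was read as −log10 p. No deposited score lies below 5. Averages over merged calls are recognised by their decimals, and some escape this. How the width of merged peaks was set is not given in the sources used here. Columns of other samples numbered 0.

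Peaks matched by 1 bp. Gene starts came from RefSeq tables (GRCh38.p14), which give a strand for 15842 of 20037 protein-coding genes; for the other 4195 either gene end within 1000 bp counted, so 3′ ends are included there. Deciles of score were weighted equally to compare classes of peaks, in strata of at least 20 peaks. Coordinates are counted from 1. Overlap and decile code was tested on simulated data. Python 3.11.15, numpy 2.4.6, pandas 2.3.3, scipy 1.17.1 and matplotlib 3.10.9 were used.

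Members and gene lists were chosen with earlier results of these data known. Genes were named by rule: the 10 strongest gene-start peaks in 1 list only; the 8 largest moves in rank each way among genes in the top 25% of either list; the 5 strongest distal peaks in 1 list only; the 5 genes with most clone 1 peaks absent in control; the 5 extreme windows; list members with a peak in 1 list only and the strongest kept; SMARCAL1 and CD274. CGAS, CMTM6, RADX, ZRANB3, the claudin genes and the listed interferon-stimulated genes without a control peak were added after their values were seen. Settings for genes with a strand, any annotated start, and control peaks of 7 or more against the whole clone 1 list were added after seeing the data. Some genes that the rule names are not reported here.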

Additional observations from a re-analysis of the deposited data

How the results depend on the processing

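No paired analysis was possible because each group is 1 merged list with no values per replicate, and replicates could not be left out in turn for the same reason. With both lists at scores of 7 or more, 57.0% of control peaks and 13.3% of clone 1 peaks were absent from the other list, 40.9% of genes were missing, 211 were present in clone 1 only and the gene-start difference was 8.19 points. With lists of equal length these values were 39.8%, 39%, 14% and 886. With only the recognisable means of 1 list set against the whole other list they were 35.5%, 5.12%, 15.3%, 50 and 13.4 points. When at least 50% of a peak had to be covered, 61.8% and 33.2% were absent and the difference was 12.9 points; with a gap of up to 500 bp counted as overlap these were 55.5%, 28.3% and 21.0 points. Gene starts within 3000 bp gave 21.8% missing genes and 14.2 points, and either gene end gave 15.9 points. Genes with a strand only gave 19.5%. Control peaks of 7 or more against the whole clone 1 list gave 22.2% absent peaks and 7.14% missing genes. The gene-start difference was positive under every setting for which it was computed, and of 200 values of gene lists under these settings 168 stayed within the 95% counting interval of the value reported and 32 moved further. With recognisable means only, 5 of the 10 named genes missing in clone 1 and 1 of the 10 present in clone 1 only remained, since the others carry 5 decimals or fewer. Peaks near the lowest score decide most of the counts, and a peak absent from a list may lie just under its threshold.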

Other observations

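Gene classes also differed in length. Genes with a gene-start peak in both lists had a median length of 35.5 kb, those with a control peak only 23.8 kb, those with a clone 1 peak only 20.3 kb and those with neither 14.2 kb. Some families outside the fixed lists had few peaks. Of 10 chemokine genes with a control gene-start peak 5 were missing in clone 1, with 3.99 expected from their scores, and CXCL14, CXCL2, CXCL3 and CXCL8 were among those kept. Of 13 interleukin genes 6 were missing, with 4.60 expected, and IL7R, IL5, IL15 and IL7 were kept. All 3 keratin genes with a control peak were missing, with 1.77 expected, 2 of which share 1 peak. Classical and type II cadherin genes had 4 of 8 missing, with 2.82 expected, and 3 more had a peak in clone 1 only. Complex I subunit genes had 6 of 32 missing with 7.03 expected, mediator genes 5 of 25 with 5.20, translation initiation factor genes 5 of 39 with 5.53 and kinesin genes 8 of 31 with 7.30. On contigs outside the primary chromosomes 51.4% of 1457 control peaks had no clone 1 peak.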
